A study of Mus musculus with 4 samples.

Results

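The 9 genes described here encode transcription factors of microglia and of the wider myeloid lineage, namely Spi1, Irf8, Runx1, Sall1, Mef2a, Mef2c, Maf, Cebpa and Cebpb. They were chosen by name, and each was read over its annotated span in the mouse build mm10 (GRCm38.p6) with 5 kb added on each side, called its window below. The windows added up to 701.4 kb and held 6493 CpGs with a value in at least 1 library, of 15959399 such CpGs on the autosomes, and the 9 genes were 9 of 33073 autosomal genes considered. DNA methylation had been measured by whole-genome bisulfite sequencing, which reads unmethylated cytosines as T and methylated ones as C, in hippocampal microglia of mice aged 3 weeks. The FGR group (fetal growth restriction, intrauterine growth restriction in the series title) had 2 libraries and the control group had 2, and all 4 came from mice of the genotype Tmem119-tdTomato+/-, a reporter that marks microglia. The labels do not say how growth was restricted, how the cells were isolated, or whether replicates were separate animals or pools, so p-values measure only the spread between these libraries, which may be technical.

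Methylation at the 5 position of cytosine in CpG pairs is low at most active promoters and enhancers and high in the bodies of most genes, and cell types differ mainly at distal regulatory elements. PU.1, the product of Spi1, opens myeloid enhancers together with partners such as IRF8, RUNX1 and the C/EBP proteins, and SALL1, MEF2 and MAF factors then shape the enhancers that set microglia and other tissue macrophages apart. The genes of such factors often carry several promoters and long stretches of low methylation of their own. A level below is the share of methylated reads among all reads at the CpGs of a region in 1 library, in percent. A difference is the FGR mean minus the control mean, in percentage points.

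The annotated promoters of these genes cover almost the whole range of CpG density. The sequences are shown because how many CpGs could be read at all differed along that range. Methylation levels differed between starts as well, but did not follow CpG density. Each run gives 250 bases before to 50 bases after a listed start, 5′ to 3′ on the strand of the gene, from RefSeq (GRCm38.p6), with every CpG in capitals. Starts were listed for 7 of the 9 genes, 13 starts in all, numbered from the outermost one inward. Runx1 has a CpG-poor and a CpG-rich promoter (chr16:92826025-92826324 and chr16:92697280-92697579, minus strand), and Mef2c has 3 starts (chr13:83503784-83504083, chr13:83523406-83523705 and chr13:83573357-83573656, plus strand).
Runx1 start 1: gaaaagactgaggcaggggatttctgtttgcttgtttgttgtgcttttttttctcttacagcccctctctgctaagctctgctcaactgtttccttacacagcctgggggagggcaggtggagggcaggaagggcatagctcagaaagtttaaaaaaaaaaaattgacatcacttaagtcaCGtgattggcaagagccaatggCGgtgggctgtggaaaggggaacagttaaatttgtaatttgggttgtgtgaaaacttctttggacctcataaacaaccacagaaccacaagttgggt
Runx1 start 2: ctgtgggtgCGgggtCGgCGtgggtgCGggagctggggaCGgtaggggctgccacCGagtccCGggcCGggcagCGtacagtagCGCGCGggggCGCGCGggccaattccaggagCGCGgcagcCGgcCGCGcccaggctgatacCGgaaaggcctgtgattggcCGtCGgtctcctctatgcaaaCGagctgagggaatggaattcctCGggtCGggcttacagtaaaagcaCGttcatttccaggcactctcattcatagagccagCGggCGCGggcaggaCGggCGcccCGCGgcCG
Mef2c start 1: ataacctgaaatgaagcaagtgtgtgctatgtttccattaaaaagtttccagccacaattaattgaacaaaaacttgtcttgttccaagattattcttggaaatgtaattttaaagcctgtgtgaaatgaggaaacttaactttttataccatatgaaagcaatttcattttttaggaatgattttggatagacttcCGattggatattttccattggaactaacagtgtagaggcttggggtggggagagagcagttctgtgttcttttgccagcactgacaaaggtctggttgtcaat
Mef2c start 2: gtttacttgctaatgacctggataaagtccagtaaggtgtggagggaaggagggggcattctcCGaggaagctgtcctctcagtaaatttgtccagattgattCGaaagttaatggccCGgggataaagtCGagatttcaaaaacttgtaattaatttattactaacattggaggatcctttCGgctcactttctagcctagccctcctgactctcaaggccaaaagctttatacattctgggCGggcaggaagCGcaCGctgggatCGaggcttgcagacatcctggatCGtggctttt
Mef2c start 3: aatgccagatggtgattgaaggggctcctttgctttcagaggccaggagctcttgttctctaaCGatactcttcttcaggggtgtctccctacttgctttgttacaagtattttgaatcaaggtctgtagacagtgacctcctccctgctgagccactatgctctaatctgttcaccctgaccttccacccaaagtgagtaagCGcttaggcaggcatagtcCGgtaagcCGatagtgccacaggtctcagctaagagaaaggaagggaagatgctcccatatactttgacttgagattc
Irf8 start 1 (chr8:120736108-120736407, plus strand), Sall1 start 3 (chr8:89042813-89043112, minus strand), Mef2a start 1 (chr7:67372809-67373108, minus strand), Cebpa start 1 (chr7:35119043-35119342, plus strand) and Cebpb start 1 (chr2:167688665-167688964, plus strand) are further CpG-rich promoters. Not shown are Sall1 start 2 with 27 CpGs, Sall1 start 1 with 18 and Irf8 start 2 with 8.
Irf8 start 1: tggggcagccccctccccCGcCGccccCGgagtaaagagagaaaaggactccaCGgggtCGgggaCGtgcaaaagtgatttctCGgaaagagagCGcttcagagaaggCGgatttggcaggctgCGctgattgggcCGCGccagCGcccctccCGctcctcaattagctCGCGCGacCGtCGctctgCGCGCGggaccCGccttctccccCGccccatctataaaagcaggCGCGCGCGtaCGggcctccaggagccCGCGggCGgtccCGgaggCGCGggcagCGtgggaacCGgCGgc
Sall1 start 3: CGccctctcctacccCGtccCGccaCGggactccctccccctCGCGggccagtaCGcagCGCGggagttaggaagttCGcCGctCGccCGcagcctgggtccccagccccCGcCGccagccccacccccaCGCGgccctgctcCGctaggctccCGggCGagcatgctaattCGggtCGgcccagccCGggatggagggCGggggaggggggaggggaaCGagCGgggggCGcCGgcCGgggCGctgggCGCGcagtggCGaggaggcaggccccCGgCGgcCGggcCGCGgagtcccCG
Mef2a start 1: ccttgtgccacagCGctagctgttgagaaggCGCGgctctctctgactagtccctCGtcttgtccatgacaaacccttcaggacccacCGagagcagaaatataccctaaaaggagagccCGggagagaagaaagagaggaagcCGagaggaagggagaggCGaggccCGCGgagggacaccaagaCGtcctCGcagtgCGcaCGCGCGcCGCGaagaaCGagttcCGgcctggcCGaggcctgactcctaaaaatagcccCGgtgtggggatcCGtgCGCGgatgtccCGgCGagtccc
Cebpa start 1: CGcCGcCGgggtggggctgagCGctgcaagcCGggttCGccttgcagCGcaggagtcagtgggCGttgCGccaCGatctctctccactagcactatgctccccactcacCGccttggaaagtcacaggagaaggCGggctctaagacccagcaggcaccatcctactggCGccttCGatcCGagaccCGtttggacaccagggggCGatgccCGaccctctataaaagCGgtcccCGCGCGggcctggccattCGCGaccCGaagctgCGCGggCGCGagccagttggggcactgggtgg
Cebpb start 1: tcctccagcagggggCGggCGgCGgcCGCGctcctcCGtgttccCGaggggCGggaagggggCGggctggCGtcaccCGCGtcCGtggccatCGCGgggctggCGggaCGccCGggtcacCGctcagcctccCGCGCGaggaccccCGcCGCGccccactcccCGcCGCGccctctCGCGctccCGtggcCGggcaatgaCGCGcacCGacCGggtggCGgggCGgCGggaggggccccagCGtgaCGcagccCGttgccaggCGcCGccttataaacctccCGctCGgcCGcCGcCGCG

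The CpG count of these 300-base runs was 2 and 35 for Runx1 starts 1 and 2. It was 1, 10 and 4 for Mef2c starts 1, 2 and 3. Irf8 start 1 had 38 CpGs, Sall1 start 3 had 39, Mef2a start 1 had 27, Cebpa had 29 and Cebpb had 50, against a median of 7 over 31396 promoters. The Cebpb run had more CpGs than 99.1% of all promoters. Dense promoters were thinly read: the deposited tables list cytosines with 5 or more reads, and of the 288 CpGs in the 13 member promoters 63 (21.9%) had a value in any library, against 39.4% over all promoters. Among all promoters the listed share was 77.5% with under 10 CpGs, 49.7% with 10 to 24 and 20.9% with 25 or more. None of the 50 CpGs in the Cebpb run and none of the 35 in the Runx1 start 2 run was listed in any library, while 20 of 29 were listed for Cebpa, 14 of 38 for Irf8 start 1 and 14 of 27 for Mef2a. The levels at starts given below therefore come mostly from CpGs beside the core promoter.

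Short binding motifs of the members' own proteins were looked for in the 13 runs on both strands. TGTGGT, the RUNX core, was in 1 of the 13, Runx1 start 1, against 16.7% of all promoters. AANNGAAA, the core of IRF sites, was in 3 of the 13 (Runx1 start 1 and Mef2c starts 1 and 3), against 23.8% of all promoters. GAGGAAGT for PU.1, TTGCNNAA for C/EBP, CTATTTATA for MEF2 and TGCTGAC for MAF were in none of the 13, against 3.25%, 10.9%, 0.433% and 4.63% of all promoters. GGAA, the ETS core that GAGGAAGT contains, was in all 13 and in 95.9% of all promoters. These counts describe letters in a 300-base run, and other forms of the motifs were not searched.

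The libraries had a summed coverage of 49563150 and 91762720 reads over the listed cytosines in the FGR group, against 62202250 and 66971740 in the control group, and FGR 2 was the deepest and FGR 1 the shallowest. The level over all autosomal CpGs was 74.6% and 75.6% in FGR and 76.0% and 76.4% in control libraries. Of the members' CpGs, 482 (7.42%) were listed in all 4 libraries, against 8.89% of all autosomal CpGs. The libraries therefore read partly different CpGs of the same gene, and several comparisons are also given at shared CpGs (listed in all 4 libraries) or at CpGs listed in at least 1 library of each group. The others, among them most bodies and low stretches, are given over all listed CpGs only. Start windows, 1 kb on each side of a start, of the microglial genes Cx3cr1 and P2ry12 were at 1.85% and 2.30% (Cx3cr1) and 3.39% and 2.04% (P2ry12) in FGR, against 8% and 0% (Cx3cr1) and 0% and 4.44% (P2ry12) in control libraries. Those of the T and B cell genes Cd3e and Cd79a were between 76.4% and 88.6% in all 4 libraries. The other microglial marker with a tested start, Aif1, had 67.7% and 84.9% in FGR and 96.0% and 84.9% in control libraries. The start of the neuronal gene Syt1 was at 4.39% and 3.85% in FGR and 0% in both control libraries, and that of Rbfox3, also neuronal, at 93.3% and 83.3% in FGR and 84.6% and 79.2% in control libraries. Slc1a3, an astrocyte gene, had 19.7% and 14.1% in FGR and 4.71% and 2.10% in control libraries. Cldn5, an endothelial gene, had 35% and 20.2% in FGR and 32.3% and 9.68% in control libraries, and Mog, an oligodendrocyte gene, had 100% and 47.6% in FGR and 33.3% and 43.8% in control libraries. Their part in the results was not tested, and a start's level does not give the share of a cell type.

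The gene windows fell into 2 sets of levels, a low one with Maf, Cebpa, Sall1, Cebpb and Irf8 and a high one with Spi1, Mef2c, Mef2a and Runx1. Averaged over the 4 libraries the low set ran from 21.4% in Maf to 45.9% in Irf8, and 0.65% to 3.12% of all 32613 gene windows tested were lower. The high set ran from 66.9% in Spi1 to 81.3% in Runx1, with the median of all windows at 74.6%. No member was called different between FGR and control (0 of 9), where a call needed an adjusted p under 0.05 and at least 10 points, and neither was any other gene window (0.0% of 32613, with 2085 windows, 6.39%, at an unadjusted p under 0.05, and 0 calls and 1990 such windows with limma on log2 ratios). With 2 libraries against 2, an exact permutation test cannot go below p = 0.333, so the calls rest on the spread pooled over all windows. The FGR mean was lower in 5 of the 9, against 63.1% of all windows. Both FGR libraries lay below both control libraries in 2 of the 9 (Mef2c and Cebpa), against 25.8% of all windows, and the groups did not overlap in these 2 alone, against 36.1%. The members' counts were thus not above the background.

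**Figure D1:**
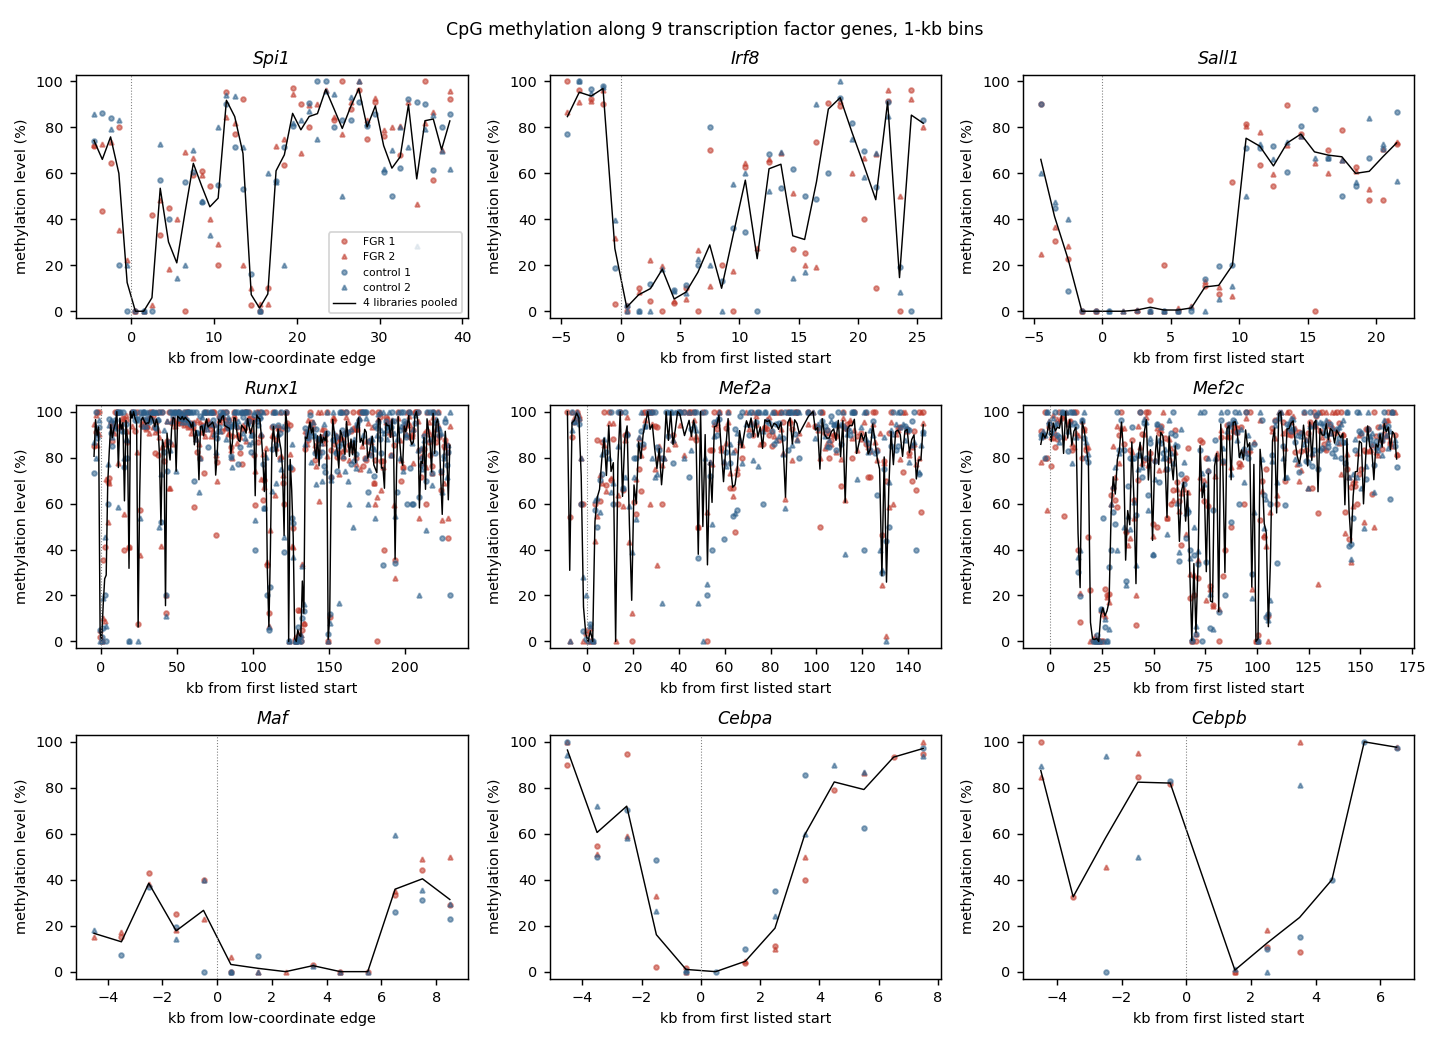
Methylation level (percent) in 1-kb bins along the 9 genes, against distance in kb from the first listed start in the direction of transcription, or from the low-coordinate edge for Spi1 and Maf. Red circles and triangles are FGR 1 and 2, blue circles and triangles are control 1 and 2, and the black line pools the 4 libraries. Maf and Cebpa lay near 0 around their annotated spans, Sall1 lay near 0 from its start to several kb behind it and was methylated further in, Irf8 stayed low for several kb behind its start, and Runx1, Mef2a and Mef2c were high with narrow troughs.

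Spi1 (chr2:91082374-91115759) encodes PU.1, the ETS factor without which macrophages and microglia do not form. Its window had 65.4% and 64.4% in FGR, against 63.7% and 74.0% in control libraries. The FGR libraries lay within the control range, and the difference of -3.97 points had an adjusted p of 0.914. Along the gene 5 stretches of low methylation were seen, that is, runs of 250-bp bins each at or below 20% with the libraries pooled, and they made up 5500 bp or 12.7% of the window. The widest, 2000 bp at chr2:91096124-91098123, had 2.5% and 8.20% in FGR and 8.16% and 0% in control libraries, and the groups overlapped. The stretch at the low-coordinate edge, chr2:91082124-91083123, had 0% in the 3 libraries that listed it, with 23 and 17 reads in FGR and 35 reads in control 1. Since no start or strand was listed for Spi1, which of these stretches holds a promoter was not determined. The 2-kb window at the low-coordinate end had 0% and 11.4% in FGR and 0% and 20% in control libraries. The one at the high-coordinate end had 50% and 88.4% in FGR and 75.4% and 73.7% in control libraries.

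At the 11 shared CpGs of Spi1, the FGR libraries stood at 84.0% and 82.6% and the control libraries at 78.9% and 72.2%. Here both FGR libraries lay above both control libraries, which happened in 14.7% of the 30000 windows that could be tested at shared CpGs (the groups did not overlap in 33.4%). The difference of 7.74 points had an adjusted p of 0.907, and its sign was the opposite of that over all listed CpGs. The control 2 library, at 74.0%, set the sign of the comparison over all listed CpGs, and without it the difference was 1.19 points. Shared CpGs left 7 of the 9 members to test and 0 of them were called, and none of the 30000 windows was (0.0%, with 1708, 5.69%, at an unadjusted p under 0.05 and 0 calls and 1587 such windows with limma).

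Irf8 (chr8:120736358-120756694, plus strand) encodes the interferon regulatory factor that pairs with PU.1 on composite sites and is needed for microglia. The 4 kb before its start window were high, at 93.3% and 90.3% in FGR and 94.5% and 97.5% in control libraries. The body, from 1 kb behind the start to the gene end, was at 45.6% and 36.0% in FGR and 49.6% and 27.5% in control libraries, and 2.42% of 21787 gene bodies were lower. The groups overlapped, and the difference of 2.22 points had an adjusted p of 0.992.

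Low methylation reached far into Irf8. Of its 6 low stretches, which took 20.6% of the window, the one over start 1 was 2000 bp wide with 1.18% and 4.23% in FGR and 1.60% and 0% in control libraries. A stretch centred 4.25 kb behind the start had 3.57% and 5.43% in FGR and 9.09% and 11.6% in control libraries. The groups did not overlap, but control 1 had only 11 reads there, with a 95% Wilson interval from 1.62% to 37.7% that takes in both FGR levels. The last, 23.9 kb behind the start and beyond the gene end, had 0% in both FGR and 0% and 8.57% in control libraries. The FGR libraries had only 16 and 5 reads there, with 95% Wilson intervals up to 19.4% and 43.4%.

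The Irf8 start window differed more between libraries of a group than between groups. It had 1.18% (95% Wilson interval 0.208 to 6.37, 85 reads) and 16.7% (12.2 to 22.5, 203 reads) in FGR, against 7.25% (3.98 to 12.8, 138 reads) and 25% (17.3 to 34.7, 92 reads) in control libraries. The intervals cover counting error only, and a read over several CpGs counts several times, so they can be too narrow. The libraries had read different CpGs: at the 14 CpGs listed in both groups the levels were 2.04% and 31.6% in FGR and 12.5% and 13.7% in control libraries, which turned the difference from -7.16 to 3.74 points. For the whole Irf8 window, levels of 48.3% and 46.8% in FGR and 53.4% and 35.3% in control libraries gave 3.23 points (adjusted p 0.975), and without control 2 the difference was -5.82 points.

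Runx1 (chr16:92601466-92826074, minus strand) encodes a runt-domain factor of blood stem cell formation and of the yolk sac progenitors that give rise to microglia, and is transcribed from a distal and a proximal promoter. The windows around both starts were low, though the proximal run itself had no listed CpG. The start 1 window, around the run with 2 CpGs, had 1.02% and 1.47% in FGR and 2.96% and 0% in control libraries. The groups overlapped, the adjusted p was 1.0, and 2.46% of 18521 start windows were lower. The start 2 window, 128745 bp further on and around the run with 35 CpGs, had 7.69% and 1.67% in FGR and 0% in both control libraries. FGR 1 had 13 reads there, so its level had a 95% Wilson interval from 1.37% to 33.3%, and the 44 and 79 reads at 0% in the control libraries allow up to 6.82% and 3.80% (3 counts). At the 9 CpGs listed in both groups it was 2.38% of 84 FGR reads and 0% of 72 control reads.

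Between and beside its promoters the Runx1 body was high, at 81.5% and 82.3% in FGR and 81.9% and 82.9% in control libraries (difference -0.501 points, adjusted p 0.979). It was broken by 8 low stretches, 12250 bp or 5.22% of the window. That centred 24.9 kb behind start 1 lies in the intron between the promoters, which is known to hold an enhancer active in blood stem cells; no enhancer annotation was used here. It had 6.06% and 0% in FGR and 0% in control 2, and no read in control 1. The 0% in FGR 2 came from 6 reads at 1 CpG and that in control 2 from 15 reads. These allow up to 50% and 20% (3 counts). Another, 110.5 kb behind start 1, had 12.5% and 10.3% in FGR and 4.48% and 6.25% in control libraries, and the groups did not overlap. One 150.0 kb behind start 1 had 7.69% and 0% in FGR and 6% and 5.41% in control libraries. The 3250-bp stretch behind start 2 had 4.63% and 5.19% in FGR and 2.93% and 2.11% in control libraries, and the groups did not overlap. A stretch centred 133.1 kb behind start 1 was lower in FGR, with 7.32% and 6.76% against 12.5% and 13.6% in control libraries. The groups did not overlap there either, but the FGR intervals, 2.52% to 19.4% and 2.92% to 14.9%, take in both control levels. The whole Runx1 window, with 7048 to 12741 reads per library the best measured of the 9, differed by -0.885 points over all listed CpGs (adjusted p 0.952) and by 0.412 points at its 148 shared CpGs (adjusted p 0.996).

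Sall1 (chr8:89027242-89044162, minus strand) encodes a zinc-finger repressor that, among myeloid cells of the brain, is known from microglia and keeps them from an inflammatory state. Its 3 listed starts lie within 1300 bp, so their windows overlap. Start window 1 had no methylated read in any library, with 65 and 40 reads in FGR and 67 and 63 in control libraries, which allows up to 4.62% and 7.5% in FGR and 4.48% and 4.76% in control libraries (3 counts). The 3 starts lay inside a low region that ran on into the gene for several kb, and its widest stretch, 6500 bp (chr8:89035742-89042241), was the widest of all 46 in the 9 genes. That stretch had 4.72% and 2.11% in FGR and 2.02% and 0.804% in control libraries. The groups did not overlap, but by less than 0.1 points between FGR 2 and control 1. With the libraries pooled, the level was 11.3% in the bin starting 8 kb behind start 1 and 75.3% in the bin starting at 10 kb. The body as a whole thus mixed both states, with 53.9% and 39.6% in FGR and 39.2% and 39.3% in control libraries. Both FGR libraries lay above, FGR 1 by far, and the difference of 7.48 points had an adjusted p of 0.933. At the 139 CpGs of the body listed in both groups it was 2.98 points.

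The 4 kb upstream of the Sall1 start window gave the lowest unadjusted p of any flank of these genes. Levels were 22.6% and 18.9% in FGR and 42.5% and 48.7% in control libraries, and the groups did not overlap. The difference was -24.9 points with an adjusted p of 0.569. At the 15 CpGs of this flank listed in both groups it was 22.7% and 38.3% in FGR and 28.1% and 36.0% in control libraries, the groups overlapped, and the difference was -1.55 points. Most of the difference thus lay between CpGs that only 1 group had listed. For the whole Sall1 window the difference was 2.05 points (adjusted p 0.974), and at its 13 shared CpGs it was 1.16 points with 42.7% and 54.8% in FGR and 53.9% and 41.3% in control libraries.

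MEF2A and MEF2C are MADS-box factors whose motif is common in enhancers of resting microglia, and MEF2C also acts in neurons and muscle. Mef2a (chr7:67231163-67376456, minus strand) had a low start window, with 3.36% and 4.35% in FGR and 0.714% and 20% in control libraries. The last value came from 10 reads (95% Wilson interval 5.67 to 51.0), and this start was not tested. The window was at 78.7% and 81.9% in FGR and 81.4% and 82.1% in control libraries (difference -1.47 points, adjusted p 0.963). At 90 shared CpGs it had 86.5% and 86.6% in FGR and 86.4% and 86.9% in control libraries, a difference of -0.0912 points (adjusted p 0.998). The first listed start, at 67372858, lies inside the annotated span, so most of the upstream flank does too. This flank was higher in both FGR libraries, at 88.5% and 92.6% in FGR and 71.0% and 84.9% in control libraries. That difference of 12.6 points (adjusted p 0.823) was 3.13 points at the 24 CpGs listed in both groups, where the groups overlapped.

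Mef2c (chr13:83504017-83667079, plus strand) was the member whose starts differed most from each other. Start window 1, around a run with 1 CpG, was methylated, at 88.9% and 94.7% in FGR and 94.2% and 95.2% in control libraries, and 97.9% of start windows were lower. Start window 3, 69573 bp further on, had 10.3% and 15.9% in FGR and 18.2% and 20% in control libraries. Both FGR libraries lay below both control libraries there, as in 18.6% of 22556 start windows when every listed start was taken, and the adjusted p was 1.0. No start of any gene was called on that list either (0.0%, with 1272, 5.64%, at an unadjusted p under 0.05).

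Mef2c start window 2, 19622 bp behind start 1, looked unlike between the groups until the same CpGs were compared. It had 31.0% (95% Wilson interval 17.3 to 49.2, 29 reads) and 18.1% (11.9 to 26.5, 105 reads) in FGR, against 75% (46.8 to 91.1, 12 reads) and 75% (53.1 to 88.8, 20 reads) in control libraries. It could not be tested, because a library listed fewer than 3 CpGs. At the 3 CpGs listed in both groups the level was 65.7% of 35 FGR reads and 74.1% of 27 control reads. The low level in FGR libraries thus came mainly from CpGs that no control library listed. Among these were the 2 listed CpGs of the printed run, at -187 and -147 bp from the start. They had 0% of 15 reads in FGR 2 and no read in the other libraries. A 4250-bp low stretch begins 611 bp behind the start. This stretch, centred 22.4 kb behind start 1, had 0% and 1.01% in FGR and 0.820% and 0% in control libraries. In all, Mef2c had 11 low stretches, the most of the 9 genes, with 12750 bp or 7.37% of its window. They lay 14.2 to 105.4 kb behind start 1, and those on both sides of start 3 had 0% to 1.35% before it and 4.88% to 9.38% behind it in the 4 libraries.

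**Figure D2:**
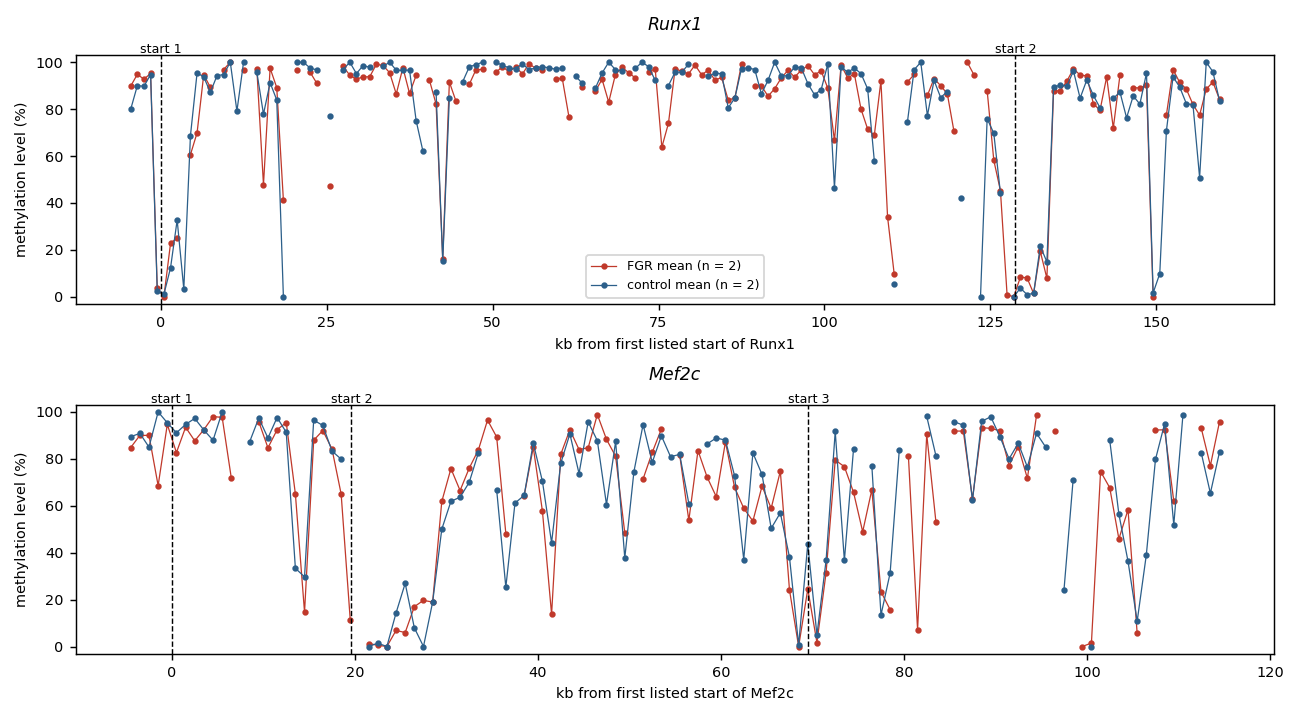
Mean methylation level (percent) of the 2 FGR libraries (red) and the 2 control libraries (blue) in 1-kb bins of Runx1 and Mef2c, against kb from the first listed start, with listed starts as dashed lines. Bins that a library of the group did not list have no point for that group; the far ends of both genes are not drawn. Runx1 starts 1 and 2 lie in troughs near 0, whereas Mef2c start 1 lies in methylated sequence and its deepest trough begins behind start 2.

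The Mef2c window was the only 1 of the 9 with an unadjusted p under 0.05 (0.0412), with 71.2% and 69.6% in FGR and 72.9% and 73.4% in control libraries. Both FGR libraries were lower, and the difference of -2.70 points had an adjusted p of 0.771. It was negative under every alternative tried over all listed CpGs, between -3.50 and -1.91 points when libraries were left out in turn. At the 852 CpGs listed in both groups it was -1.5 points. At the 195 shared CpGs, with 77.0% and 76.5% in FGR and 74.5% and 78.4% in control libraries, it was 0.276 points (adjusted p 0.997), and the groups overlapped. The body did the same, with -2.47 points over all listed CpGs (unadjusted p 0.0297, adjusted p 0.762) and 0.312 points at shared CpGs. No member body was called, nor was any of 21787 bodies (0.0%, 1332 or 6.11% at an unadjusted p under 0.05, and 16 calls without FGR 2).

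Maf (chr8:115703253-115706894) encodes the bZIP factor c-Maf, which holds macrophages in a mature, non-dividing state. Its window was the lowest of the 9, at 21.1% and 24.5% in FGR and 23.2% and 16.8% in control libraries. The groups overlapped, with a difference of 2.80 points and an adjusted p of 0.929. Low stretches made up 40.3% of the window in 7 pieces, the largest share among the 9 genes, and none exceeded 1000 bp. In the middle of the annotated span, more than 1 kb from either edge, 11 CpGs were listed. They had 0% in FGR 2, 6.67% and 0% in control libraries, and no read in FGR 1. The low-coordinate end had 20% and 13.3% in FGR and 0% and 7.41% in control libraries (adjusted p 0.949). At 10 shared CpGs, which lie in the flanks, the window had 43.4% and 48.6% in FGR and 44.8% and 54.2% in control libraries (difference -3.46 points, adjusted p 0.989).

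Cebpa (chr7:35119293-35121928, plus strand) encodes C/EBP alpha, which drives progenitors into the myeloid lineage. Its start window had 1.55% and 0% in FGR and 0% and 0.893% in control libraries, lower than nearly all others (0.67% of start windows were lower). The groups overlapped, and the adjusted p was 1.0. The body had 5% and 4.08% in FGR and 12% and 8.70% in control libraries. Both FGR libraries were lower, and the difference of -5.81 points had an adjusted p of 0.936. The Cebpa window had the largest absolute difference of the 9, with 20.9% and 37.5% in FGR and 41.2% and 40.8% in control libraries, that is -11.8 points (adjusted p 0.835). Its upstream flank differed too, with 16.4% and 51.4% in FGR and 61.9% and 54.8% in control libraries (difference -24.5 points, adjusted p 0.886). At the 20 CpGs of that flank listed in both groups, 48.9% and 48.4% in FGR stood against 45.3% and 56.7% in control libraries, and the difference was -2.34 points. FGR 1 decided the size of the window difference, which was -3.48 points without it.

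Cebpb (chr2:167688915-167690432, plus strand) encodes C/EBP beta, which acts in inflammatory gene expression and is low in resting microglia. It was the least well read member, with 101 CpGs listed and none in all 4 libraries. The 8 CpGs listed in its start window lie at positions -710 to -537 bp from the start and had 81.6% in FGR 1 and 82.8% in control 1, so they say nothing of the CpG-dense run printed above. The gene body had 0% in both FGR libraries and 2.44% in control 2, with no read in control 1. A 1750-bp stretch from 1000 bp behind the start had 2.48% and 1.96% in FGR and 10% and 1.09% in control libraries, and the groups overlapped. The window had 29.3% and 65.5% in FGR and 46.0% and 36.8% in control libraries, a spread that no difference between the groups exceeded (5.98 points, adjusted p 0.989, and -12.1 points without FGR 2).

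**Figure D3:**
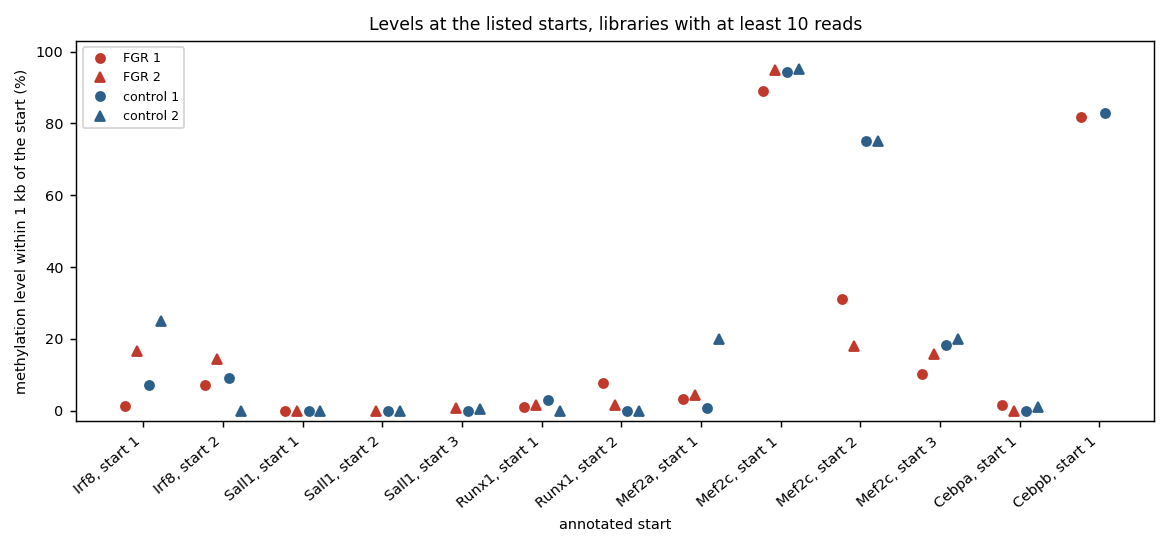
Methylation level (percent) within 1 kb of each of the 13 listed starts, per library, for libraries with 10 or more reads. Red circles and triangles are FGR 1 and 2, and blue circles and triangles are control 1 and 2. Most starts lie under 25% in every library, and Mef2c start 1 and the CpGs before Cebpb lie above 80%.

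Taking the first listed start of each gene, 5 of the 7 members with a start had enough CpGs and reads in every library to be tested. None was called, nor was any of 18521 start windows (0.0%, with 1075, 5.8%, at an unadjusted p under 0.05, and 0 calls and 931 such windows with limma). The mean level was under 10% for 3 of the 5 (Sall1, Cebpa and Runx1), against 16.9% of all start windows, whose median was 48.9%. An unadjusted p under 0.05 was reached by 3 of the 6 upstream flanks tested (Sall1, Cebpa and Mef2a, above), against 5.52% of 24213 upstream flanks, and by 1 of the 7 downstream flanks, against 5.62% of 24884. That downstream flank, of Runx1, had 71.6% and 79.1% in FGR and 87.4% and 84.6% in control libraries. Both FGR libraries were lower, and the difference was -10.6 points with an unadjusted p of 0.0354 and an adjusted p of 0.848. Of these 4 flanks it was the only 1 whose difference did not shrink at CpGs listed in both groups: at 39 such CpGs it was -12.7 points, with 81.2% and 70.7% in FGR and 90.6% and 86.6% in control libraries. No flank of any gene was called (0.0%). The groups did not overlap in 33.8% of downstream and 33.6% of upstream flanks.

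**Figure D4:**
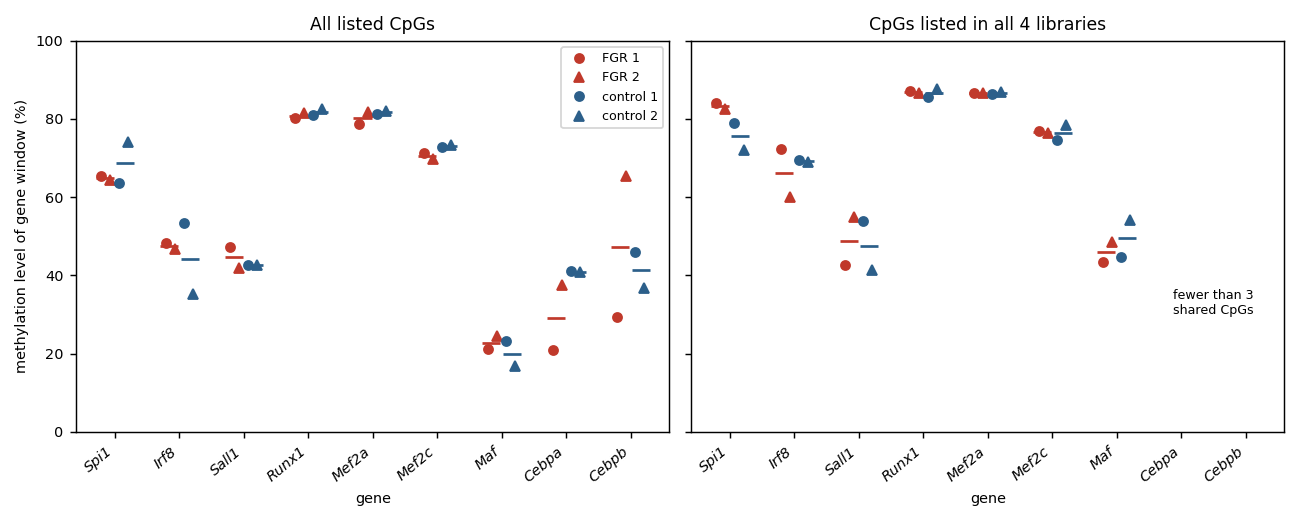
Methylation level (percent) of the 9 gene windows per library, over all listed CpGs (left) and over CpGs listed in all 4 libraries (right, where Cebpa had 2 such CpGs and Cebpb none, and neither is drawn). Red circles and triangles are FGR 1 and 2, blue circles and triangles are control 1 and 2, and bars are group means (n = 2 each). For Mef2c the FGR libraries lie below the control libraries on the left and between them on the right.

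The 482 shared CpGs of the members were also compared each by itself. FGR was higher at 181, lower at 196 and equal at 105, with a median difference of 0. Both FGR libraries lay above both control libraries at 42 and below them at 46 of the 482, against 10.7% and 11.7% of the 1418485 shared CpGs of the autosomes. All 4 libraries were over 80% at 202 of these CpGs, of which 79 were in Runx1, 73 in Mef2c and 40 in Mef2a, and all 4 were under 20% at 20, of which 12 were in Mef2c. Only 2 CpGs in the windows had 10 or more reads in every library. The Mef2c CpG had 92.3% and 100% in FGR and 100% and 92.9% in control libraries, and the Runx1 CpG had 9.09% and 7.14% in FGR and 8.33% and 9.09% in control libraries. Neither was called, nor was any of 19589 such CpGs on the autosomes (0.0%, with 944, 4.82%, at an unadjusted p under 0.05).

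In 1-kb tiles, 224 tiles of the members' windows could be tested and 0 were called, against 0.026% of 550538 tiles on all autosomes (143, or 1 with the planned overdispersion prior from all regions; of the 143, 49 were higher and 94 lower in FGR). An unadjusted p under 0.05 was reached by 11 of the 224, against 5.07% of all tiles. FGR was higher in 111 and lower in 112 (lower in 51.8% of all tiles), and the groups did not overlap in 75 (33.5%, against 33.0% of all tiles). Among tiles with 5 or more CpGs in every library, the lowest p among those lower in FGR was in Runx1 at chr16:92597001-92598000, in the downstream flank just described. It had 47.2% and 53.8% in FGR and 76.0% and 85.4% in control libraries, a difference of -30.2 points (adjusted p 0.324), and at its 12 CpGs listed in both groups the level was 68.4% in FGR and 83.9% in control reads. Its neighbour chr16:92599001-92600000 had 87.6% and 84.6% in FGR and 95.5% and 97.3% in control libraries (difference -10.3 points, adjusted p 0.949). Also lower in FGR was a Mef2a tile 106.4 kb behind its start, with 87.8% and 86.8% in FGR and 98.2% and 100% in control libraries (adjusted p 0.793). At its 3 shared CpGs the Mef2a tile had 100% and 94.3% in FGR and 96% and 100% in control libraries, a difference of -0.857 points with overlapping groups. Another was a Mef2c tile 121.5 kb behind start 1, with 82.8% and 74.5% in FGR and 90.7% and 89.3% in control libraries (adjusted p 0.999).

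The other named tiles were weaker. Runx1 tiles 192.6 kb and 184.6 kb behind start 1 were at 85.5% and 59.3% (192.6 kb) and 76.9% and 63.5% (184.6 kb) in FGR, against 93.3% and 90.6% (192.6 kb) and 75.6% and 92.1% (184.6 kb) in control libraries. At the 5 shared CpGs of the tile at 184.6 kb the direction was the opposite, with 100% in both FGR libraries and 85.2% and 90.3% in control libraries (12.2 points, unadjusted p 0.0055, adjusted p 0.9). That was the smallest p of the members' tiles at shared CpGs. Among tiles higher in FGR, Runx1 held 5 of the 6 and Maf 1. Runx1 also held 2786 of the 6493 CpGs of the members. Only 91 of the 224 tiles had the 5 CpGs per library needed to be named. The Runx1 tile 213.6 kb behind start 1 had 74.1% and 77.6% in FGR and 63.9% and 48.5% in control libraries (difference 19.6 points, adjusted p 0.986). The Maf tile, in the high-coordinate flank, had 32.2% and 50% in FGR and 23.0% and 33.3% in control libraries (difference 13.0 points, adjusted p 1.0), and at its 3 shared CpGs the difference was -0.696 points. The other 4 differed by 3.14 to 6.50 points, with unadjusted p values between 0.0995 and 0.232. At shared CpGs 54 tiles could be tested, 0 were called, against 0.000686% of 145706, and 2 had an unadjusted p under 0.05, against 5.25%.

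**Figure D5:**
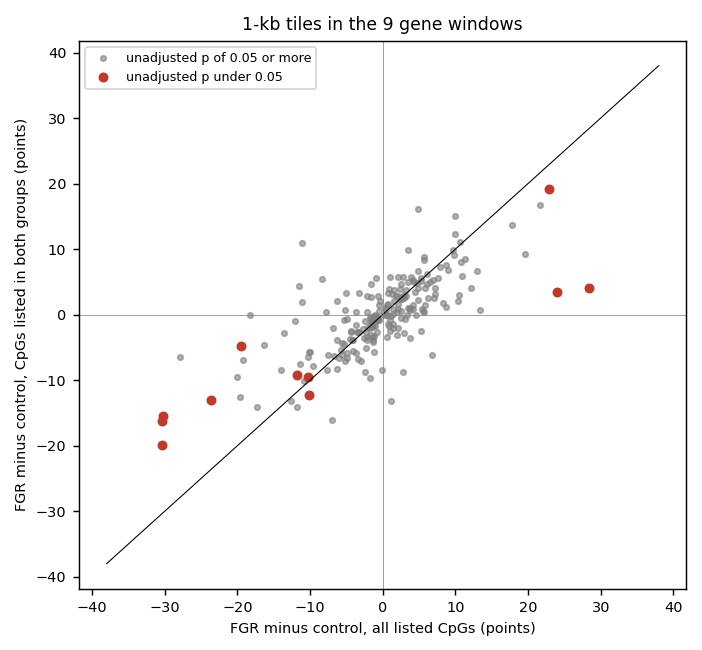
Difference in level, FGR minus control in percentage points, of 223 1-kb tiles in the members' windows, over all listed CpGs (horizontal) and over CpGs listed in both groups (vertical, reads of a group pooled). Red points are the 11 tiles with an unadjusted p under 0.05, and the line marks equal values. Most red points lie closer to 0 on the vertical axis than on the horizontal axis.

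The 11 tiles with an unadjusted p under 0.05 had a median absolute difference of 23.6 points over all listed CpGs and of 12.3 points, in the same direction, at CpGs listed in both groups. The median tile had 6 such CpGs of 11 listed. Low stretches numbered 46 in the 9 genes and took 60.5 kb in all. Of 34 stretches in genes with a listed start, 5 held a start, 16 came within 1 kb of one and 13 lay over 5 kb away. Of the 32 stretches listed in every library, FGR was higher in 17, lower in 14 and equal in 1, with a median difference of 0.265 points and a range from -6.03 to 36.8 points. The stretches were chosen by their low level over all 4 libraries, so these values describe them and were not tested. In 9 of the 32 the groups did not overlap, against 33.0% of all 1-kb tiles, and 3 had a library above 20%. Among these was the Runx1 stretch 3.86 kb behind start 1, with 45.5% and 31.3% in FGR and 0% and 3.03% in control libraries. It rested on 11 to 66 reads per library. Of its 14 listed CpGs, 2 were listed in both groups and 0 in all 4 libraries, so the groups were read at mostly different CpGs.

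Other transcription factor genes gave the setting for these levels. Of 50 other factors of myeloid cells, 31 had a tested start window, with a median level of 10.1% and 15 under 10%. FGR was higher in 21 and lower in 10, and 0 were called. The smallest p values were those of Klf6 and Irf2 among those higher in FGR and of Tal1 and Runx3 among those lower. Klf6, a zinc-finger factor of macrophage activation, had 9.93% and 7.56% in FGR and 0% in both control libraries (adjusted p 0.818), and Irf2, an interferon regulatory factor, had 22.9% and 5.88% in FGR and 0% in both control libraries (adjusted p 0.833). Tal1, a factor of blood formation, had 14.6% and 0% in FGR and 16.7% and 29.4% in control libraries (adjusted p 0.833). Runx3, the runt-domain relative of Runx1, had 94.3% and 75% in FGR and 96.1% and 100% in control libraries (adjusted p 0.857). Over whole windows, 15 of 49 of these factors were higher and 34 lower in FGR, with 0 called.

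Of 30 factors of other lineages, 12 had a tested start window, with a median level of 8.21% and 7 under 10%, 5 higher and 7 lower in FGR and 0 called. Olig2, of oligodendrocytes, had 10.3% and 4.61% in FGR and 6.14% and 3.33% in control libraries, and Gata3, of T cells, had 0.794% and 1.47% in FGR and 0% and 1.25% in control libraries (adjusted p 1.0 for both). Pax5, of B cells, had 10.3% and 15.2% in FGR and 33.3% and 23.0% in control libraries (adjusted p 0.898), and Tcf7, of T cells, had 16.1% and 20% in FGR and 54.3% and 29.0% in control libraries (adjusted p 0.962). Their windows were higher in FGR in 9 and lower in 19 of 28, with 0 called. The median start level of these factors lay below that of the other myeloid ones.

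For 5 members the mean levels of upstream flank, start window, body and downstream flank could be set against those of 41 factors from both lists. Runx1 was nearest to Myb, a factor of blood progenitors, at a distance of 5.10 points. Both had high flanks and bodies around an unmethylated start. Sall1 was nearest to Id2, an inhibitor of bHLH factors, at 8.95 points, and Irf8 to Klf6 at 13.2 points. Mef2c was nearest to Runx3 at 17.6 points, and both had a first start above 90% (93.3% for Mef2c and 91.4% for Runx3). Cebpa had no near match, the closest being Gfi1, a zinc-finger repressor of granulocyte development, at 26.2 points. The body of Gfi1 was at 32.4%, against 7.44% in Cebpa.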

How the data were processed

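The authors deposited 1 table per library that lists cytosines in CpG context on mm10, per the submitters' processing notes, which name Trim Galore 0.6.5, methylKit 1.28.0 and Bismark (no version given). Per the file headers, a deposited table gives the coverage as a count of reads and the methylated and unmethylated shares as a percent of them. The lowest deposited count was 5, so cytosines with fewer reads have no value. Coverage times percent gave whole methylated reads within 0.02 for every listed cytosine. Replicates are samples that the labels call replicates.

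From there, strands were summed per CpG and the 0.1% of CpGs with the highest coverage per library left out. Gene spans came from a RefSeq table of GRCm38.p6, and strands and starts from a RefSeq promoter table. No exon, intron or island annotation was used. The FGR and control groups were compared by a quasi-binomial model, with no term beside the group, over all autosomal regions of a kind that had 3 or more CpGs and 10 or more reads per library. The overdispersion was moderated with limma 3.58.1 and p-values adjusted by Benjamini-Hochberg over all regions. A call needed an adjusted p under 0.05 and 10 points. The moderation was planned over all regions. On simulated data that version recovered too little, so its prior was taken from regions with at least 1 expected methylated and 1 expected unmethylated read in every library, and the planned version is an alternative. Upstream flanks run from 5 kb to 1 kb before the first listed start, and downstream flanks 5 kb from the gene end. Where a sentence gives no other set, values are over all listed CpGs. Tools were R 4.3.3, arrow 21.0.0, Python 3.11.15, numpy 2.4.6, pandas 2.3.3 and SciPy 1.17.1.

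The members and gene lists were chosen with earlier results of these data known. Named were all 9 members, in each direction the 6 tiles with the smallest p among those with 5 or more CpGs in every library, called tiles, the 4 single CpGs with the smallest p, the 2 factors of each other list with the smallest start p in each direction, and for each member the factor nearest in level over 4 regions. Other low stretches, flanks and marker genes were named after their values were seen. The alternatives were limma on log2 ratios with 0.5 reads added, a replicate block, each library left out, a minimum of 10 reads, CpGs listed in both groups, no coverage filter, other widths and equal weight per CpG.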

Additional observations from a re-analysis of the deposited data

How the results depend on the processing

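No member gene window, start window or gene window at shared CpGs was called under any alternative, over 192 values. Member bodies, tiles and single CpGs, not among these values, had no call either. The Runx1, Cebpa and Mef2c windows kept their sign over all listed CpGs throughout. The Cebpa difference was -3.29 points at CpGs listed in both groups, and its window could not be tested with at least 10 reads per CpG. Counts over the whole series moved more. Tiles called were 143, but 0 with limma on log2 ratios, 7 with at least 10 reads per CpG, 0 at CpGs listed in both groups, 1 with an overdispersion prior from all regions, and 16 to 165 with a library left out. At shared CpGs, 1 start window and 1 tile were called, but 0 of each with limma, with the prior from all regions and with any library left out, and gene windows called there went from 0 to 2 without FGR 2 (0 to 2 over the 4 libraries). Gene bodies called were 0 to 16 with a library left out. The prior from all regions had been planned, and the prior used in its place, like the test of every listed start, was chosen after seeing the data. The causes of these shifts were not tested, apart from the fewer CpGs and libraries that some alternatives leave.

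The replicate block, with the replicate number as a second term, called 2053 tiles and, at shared CpGs, 2 tiles and 1 start window, and no gene window, body, single CpG or other start window. The labels do not say that the numbers pair the libraries. Deviations of same-numbered libraries from their group means had r = 0.00211 over 550538 tiles. With 2 libraries per group that read partly different CpGs, this value cannot decide whether they were paired.

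Signs turned for these members. At CpGs listed in both groups the window differences were 0.535 (Spi1), -0.934 (Irf8), 0.191 (Mef2a) and -12.9 (Cebpb) points and the Irf8 start 3.74. With at least 10 reads per CpG the windows were -1.41 (Irf8) and -2.15 (Maf), and with a flank of 2 kb -2.38 (Irf8) and -0.794 (Maf). With starts taken 500 bp to each side the Runx1 start was 0.276. With a library left out, the windows ran from -9.14 to 1.19 (Spi1), -5.82 to 12.3 (Irf8), -0.598 to 4.69 (Sall1), -3.07 to 0.136 (Mef2a), -0.436 to 6.04 (Maf) and -12.1 to 24.1 (Cebpb), and the starts from -16.0 to 1.72 (Irf8), -1.72 to 1.25 (Runx1), -5.80 to 0.0438 (Mef2c) and -0.446 to 1.10 (Cebpa). At shared CpGs the windows ran from -9.29 to 3.08 (Irf8), -5.18 to 7.51 (Sall1), -0.607 to 1.43 (Runx1), -0.305 to 0.122 (Mef2a), -1.66 to 2.21 (Mef2c) and -8.15 to 1.22 (Maf).

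No member start window could be measured with at least 10 reads per CpG. Depth limits the CpG-dense starts most, and with no methylated read the start window of Sall1 cannot tell levels under 4.48% to 7.5%, by library, from 0.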
